A study of Mus musculus and Acomys cahirinus with 84 samples.

Results

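The 10 genes described here are Fos, Fosb, Fosl1, Fosl2, Jun, Junb, Jund, Egr1, Atf3 and Ier3, chosen by name as members of the AP-1 family of transcription factors or as immediate early genes. They are 10 of 56980 gene rows in the mouse count table and 10 of 19818 in that of the African spiny mouse Acomys cahirinus, and each passed the filter on low counts in all 33 comparisons. Counts were read from 84 RNA sequencing libraries of primary skin fibroblasts, cells grown out of skin, from mice labelled C56BL6, wild mice and A. cahirinus. Each population had 7 groups of 4 libraries. At 24 h these were untreated, 10 Gy and 20 Gy of gamma irradiation, and at 12 d untreated, 10 Gy, 20 Gy and untreated passaged. The labels give no age, sex or genotype beyond the population. All 24 h libraries carried the label B1 for batch and all 12 d libraries B2, so the time after irradiation and the batch cannot be told apart, and the 24 h and 12 d groups were not tested against each other. Library names carry 1 animal code per replicate number within a population, and whether an animal gave separate cultures is not stated, so p-values measure the spread between these samples.

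AP-1 is a dimer that binds DNA through a basic leucine zipper. Jun proteins pair with each other or with Fos proteins, whereas Fos proteins need a Jun partner, and Atf3 can join Jun proteins. Immediate early genes are transcribed within minutes of a stimulus such as serum or stress, without new protein synthesis, and many of their transcripts are short-lived. In skin fibroblasts AP-1 is known for driving genes of matrix breakdown, cytokines and cell division.

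In GRCm39 the Fos family lies at chr12:85520664-85524047 on the plus strand (Fos), chr7:19036621-19043976 on the minus strand (Fosb), chr19:5497575-5505974 on the plus strand (Fosl1) and chr5:32293145-32315186 on the plus strand (Fosl2). The Jun family lies at chr4:94937271-94940459 on the minus strand (Jun), chr8:85701113-85705347 on the minus strand (Junb) and chr8:71151599-71153265 on the plus strand (Jund). The other members lie at chr18:34992876-34998037 on the plus strand (Egr1), chr1:190902493-190950236 on the minus strand (Atf3) and chr17:36132576-36133815 on the plus strand (Ier3). Some exons overlap those of a neighbour on the other strand. The recorded counting commands set no option for strand or for overlapping genes, and by the counter's defaults a read in both genes is assigned to neither. In the mouse table the overlap with Ccdc85b covers 57.2% of the exonic length of Fosl1, and the overlap with the antisense gene Gm11175 covers 52.6% of that of Jund. It covers 7.28% for Jun (with Junos) and 7.52% for Junb (with Prdx2). In A. cahirinus the overlap with Ccdc85b covers 67.4% of Fosl1. How far this lowers the levels of Fosl1 and, in mouse, Jund was not tested.

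Promoter sequences from RefSeq (GRCm38.p6) were found for 8 of the 10 members, and not for Fosl1 and Egr1. The 120 bases before the start are shown for Fos, Junb, Jund and Ier3, and for Atf3, which was higher in irradiated C56BL6 cells at 12 d. Fos, Junb, Jund and Ier3 passed as lower in C56BL6 cells at 24 h at both doses when libraries were paired by replicate number. With the same pairing, Atf3 and Fosl2 passed as lower there at the higher dose only, and Fosl2 is not shown. Without the pairing, edgeR called none of these genes at 24 h. Capitals mark matches to the motifs searched on both strands.

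Fos (chr12:85473770-85473889, plus strand): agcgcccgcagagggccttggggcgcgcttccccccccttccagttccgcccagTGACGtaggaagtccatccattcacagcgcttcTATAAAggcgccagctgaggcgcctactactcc
Junb (chr8:84978749-84978868, minus strand): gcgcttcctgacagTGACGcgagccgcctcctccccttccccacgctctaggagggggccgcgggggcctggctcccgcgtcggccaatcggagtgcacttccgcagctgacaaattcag
Jund (chr8:70697619-70697738, plus strand): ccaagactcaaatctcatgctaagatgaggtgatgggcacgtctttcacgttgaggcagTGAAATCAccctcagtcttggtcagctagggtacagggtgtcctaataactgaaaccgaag
Atf3 (chr1:191183334-191183453, minus strand): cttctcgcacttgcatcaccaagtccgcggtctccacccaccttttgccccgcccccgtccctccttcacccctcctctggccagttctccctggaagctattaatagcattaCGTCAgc
Ier3 (chr17:35821593-35821712, plus strand): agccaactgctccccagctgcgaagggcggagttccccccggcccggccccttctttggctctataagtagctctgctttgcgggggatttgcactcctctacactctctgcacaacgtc

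The motifs were the AP-1 site TGANTCA, the related 8-base form TGANNTCA, the CArG box bound by serum response factor, TATAAA, and TGACG, the core of sites bound by CREB and ATF proteins, which overlaps some forms of TGANNTCA. In the 250 bases before the start, TGACG was matched in Fos (2 matches), Fosb, Junb and, on the reverse strand, Atf3, and is held by 17.8% of 32851 promoters. TGANNTCA was matched in Jun and Jund and is held by 11.9% of promoters. TATAAA was matched in Fos (12.4% of promoters). TGANTCA (6.75% of promoters) and the CArG box (1.47%) had no match in these windows, and Fosl2 and Ier3 had no match to any of the motifs.

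Total counts per library ranged from 26.65 M to 39.82 M (M, 1e6 counts) in C56BL6, from 17.42 M to 35.98 M in wild mice and from 25.55 M to 52.86 M in A. cahirinus. Levels are given as CPM, the counts per 1 M counts of a library after scaling. A count of 3 corresponded to between 0.057 and 0.172 CPM, and every member value rested on at least 12 counts except Fosl1 in the wild 10 Gy library of replicate 1 at 24 h, at 0.135 CPM from 2 counts. That library stands apart, with the lowest total of all libraries and Jund at 68.8 CPM against 17.5 to 18.5 CPM in the other 3 of its group. The libraries labelled wild replicate 1 at 24 h and at 12 d differed in 59 genes that were above 1 CPM in every library of one and below 0.1 CPM in every library of the other, whereas numbers 2, 3 and 4 each had 0 such genes between the times. At 12 d, wild replicates 1 and 4 had 0 such genes between them, against 25 to 87 for the other pairs. Replicate 1 at 12 d also had 0 such genes against replicate 4 at 24 h, whereas replicates 1 and 4 differed in 85 at 24 h. Comparisons within wild mice are therefore also given without replicate 1, or with replicates 1 and 4 summed. For 20 Gy against untreated at 24 h, same-numbered wild libraries correlated at 0.8731 or more in their deviations from group means. Differences between wild mice and the other populations were not refitted in these ways with the replicate number as a block. All 8 fibroblast markers were present in every population. In C56BL6 the summed keratinocyte markers reached 195 to 839 CPM in replicate 1 of every group and at most 4.82 CPM in the other replicates. Markers of endothelial cells, immune cells and melanocytes summed to at most 28.9 CPM in any library. Summed mural cell markers ran from 83 to 206 CPM in C56BL6, 351 to 1604 CPM in A. cahirinus and 35.3 to 2473 CPM in wild mice. Wild replicate 1 held 1886 to 2473 CPM of them at 24 h, against 38.7 to 105 CPM in replicates 2 and 4. In A. cahirinus they summed to 351 to 623 CPM in replicate 2 and to 830.1 to 1604 CPM in the other replicates.

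Ier3, an early response gene linked to cell survival, was among the most abundant members per length in every untreated group. Levels were compared between genes as CPM per kilobase of gene length (RPKM). In untreated C56BL6 cells at 24 h, Egr1, a zinc finger factor induced by growth signals, stood at 93.6 ± 14 RPKM and Ier3 at 82.4 ± 9.61 RPKM (SD, n = 4). The libraries of these 2 genes overlapped and were followed by Junb at 43.2 ± 9.88, Fosl2 at 30.5 ± 4.9, Jun at 28.3 ± 6.51 and Fos at 20.0 ± 8.45 RPKM, in which each gene overlapped with the next. Jund (10.8 RPKM), Fosl1 (4.37 RPKM), Atf3 (2.67 RPKM) and Fosb (1.07 RPKM) were lowest, with overlap between Fosl1 and Atf3. RPKM used the full gene length, including bases shared with a neighbour. The places of Jund in mouse and of Fosl1 may therefore be too low, which was not tested.

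Untreated wild libraries at 24 h gave Ier3 97.6 ± 17.7, Junb 56.3 ± 27.8 and Egr1 50.1 ± 46.5 RPKM, all overlapping with their neighbour. A. cahirinus was led by Ier3 at 136 ± 12.6 RPKM, above every library of Junb at 57.2 ± 15.4 RPKM, and Fosl2 and Jun followed at 27.2 and 24.5 RPKM. Egr1 stood at 5.26 ± 2.31 RPKM and Fos at 1.68 ± 0.388 RPKM there. The 2 tables were made from different assemblies, so these levels are set side by side without a test.

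At 12 d the untreated order was Junb at 42.2 ± 6.56 and Ier3 at 41.5 ± 14.8 RPKM in C56BL6, Ier3 at 79.6 ± 36.5 and Fosl2 at 45.3 ± 11.4 RPKM in wild mice, and Ier3 at 151 ± 21.3 and Fosl2 at 38.4 ± 4.18 RPKM in A. cahirinus. Only in A. cahirinus did the libraries of these first 2 genes not overlap. Egr1 stood at 17.2 ± 9.44, 9.14 ± 5.52 and 33 ± 5.82 RPKM in the 3 populations. Fosl1, Fosb and Atf3 were the 3 lowest members in both mouse populations, at 0.637 to 2.05 RPKM, and each overlapped with the next. Between untreated wild and C56BL6 cells no member passed an adjusted p of 0.05 in edgeR's quasi-likelihood test at 24 h (background 5.7% of genes, 2 members at an unadjusted p under 0.05) or at 12 d (background 2.93%, 0 members). DESeq2 called 2 at 24 h, Fosb at a log2 fold change of -0.83 (adjusted p = 0.0123) and Jun at -0.54 (adjusted p = 0.0447), both lower in wild cells.

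**Figure D1:**
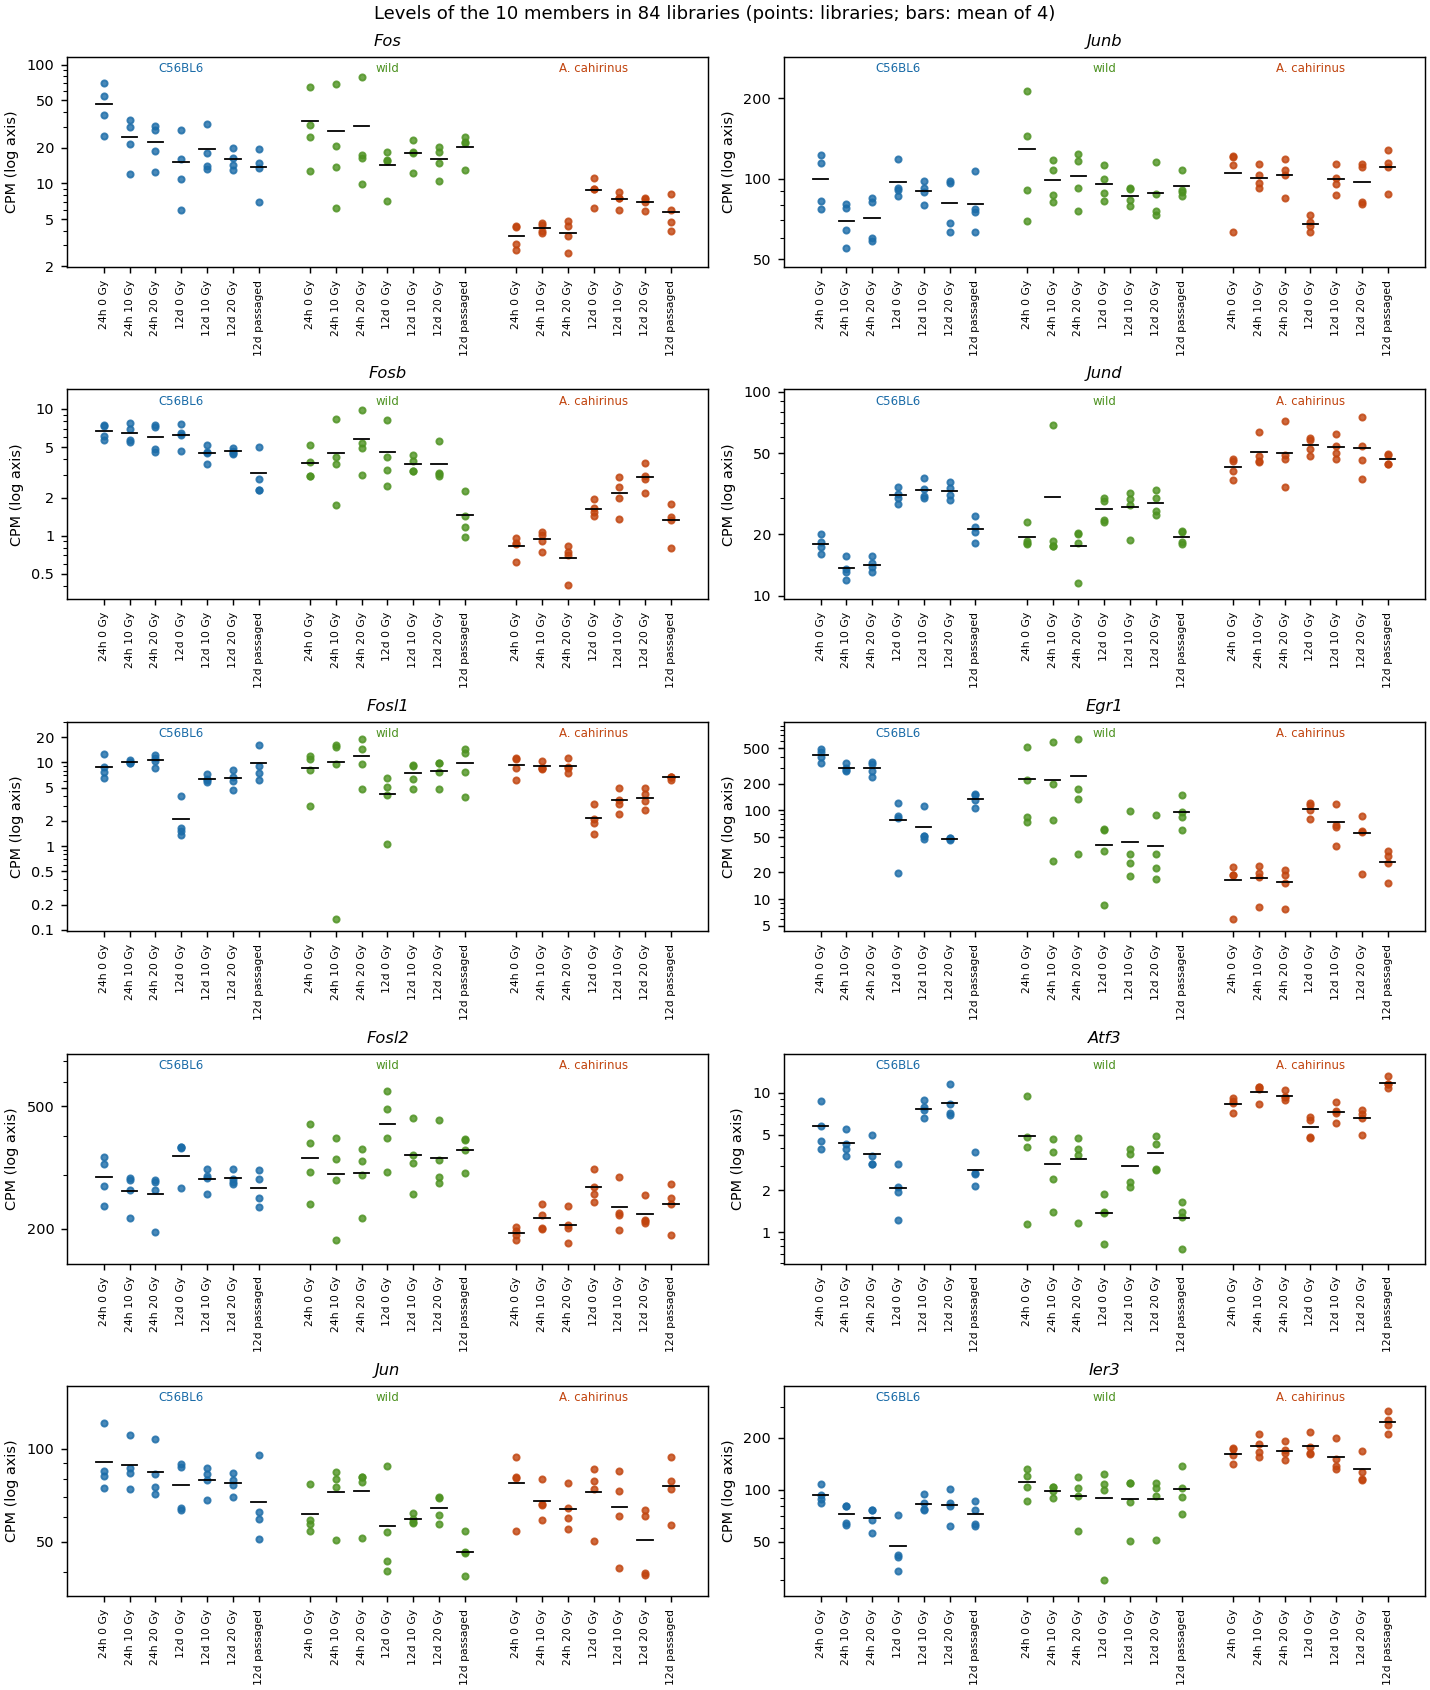
Level of each of the 10 members in CPM (log axis) in the 84 libraries, by population, time and treatment; points are libraries and bars are means of 4. Ier3, Junb and Fosl2 lie high in every group, Fosb and Atf3 lie low, and Egr1 in untreated wild cells at 24 h runs from 74.2 to 521 CPM.

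At 24 h after irradiation, 7 of the 10 transcripts were lower in C56BL6 cells when libraries of the same animal code were compared, with Fos lowest of the 10 by fold change. With 4 libraries against 4 and no block, 0 of 10 members passed at 20 Gy, beside 0.0895% of 14526 genes, and 6 members had an unadjusted p under 0.05 (0 members passed in DESeq2). The median log2 fold change was -0.38 over the members and -0.01 over all genes tested. With the replicate number as a block, 7 of 10 passed, all lower, beside 17.6% of genes called in either direction and 9.45% called lower. Same-numbered libraries deviated together in every pair of the 24 comparisons within populations, with correlations of at least 0.358. These are bulk samples, so fewer cells of a type and less RNA per cell cannot be told apart.

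Fos, the founding partner of Jun in AP-1, stood at 24.9, 37.9, 70.6 and 54.6 CPM in untreated C56BL6 replicates 1 to 4 at 24 h. After 20 Gy it stood at 12.4, 18.8, 30.3 and 28.4 CPM. The groups overlapped, but Fos was lower in each of the 4 pairs, by log2 ratios of -0.94 to -1.22. The fitted change was a 2.06-fold reduction with the block (log2 fold change -1.04, SE 0.06, adjusted p = 2.99e-07) and -1.06 with SE 0.37 without it (adjusted p = 0.38). Of the other Fos family members, Fosl2, which like Fos needs a Jun partner, was also lower with the block (log2 fold change -0.19, SE 0.05, adjusted p = 0.019). Fosb, an inducible Fos relative, had a value of -0.16 (adjusted p = 0.336), and Fosl1, the Fos relative also called FRA-1, had a value of 0.30 (adjusted p = 0.0619). Neither passed.

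Junb, a Jun protein often seen as restraining growth, stood at 77.2, 82.8, 123 and 115 CPM in untreated C56BL6 cells and at 58.5, 60.3, 84.8 and 82 CPM after 20 Gy. These groups overlapped, and all 4 pairs were lower (log2 fold change -0.46, SE 0.05, adjusted p = 1.88e-05 with the block). Jund, the Jun protein with the steadiest expression, went from 17.3, 16.1, 18.3 and 20.1 CPM to 13.1, 13.9, 14.4 and 15.6 CPM. Every irradiated library lay below every untreated one (log2 fold change -0.33, SE 0.07, adjusted p = 0.00487 with the block). Jun itself was lower in 4 of 4 pairs and did not pass (log2 fold change -0.09, adjusted p = 0.216 with the block).

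Egr1 stood at 487, 345, 451 and 396 CPM in untreated C56BL6 cells and at 354, 235, 329 and 278 CPM after 20 Gy, with overlap between the groups and all 4 pairs lower (log2 fold change -0.49, SE 0.04, adjusted p = 7.4e-06 with the block). Ier3 went from 87.7, 83.4, 108 and 93.4 CPM to 66.9, 56, 76 and 75.8 CPM, with no overlap between the groups (log2 fold change -0.44, SE 0.05, adjusted p = 8.93e-05 with the block). Atf3, a stress-induced repressor, went from 8.71, 3.98, 5.81 and 4.52 CPM to 4.97, 3.09, 3.52 and 3.09 CPM. Its groups overlapped, its pairs were all lower, and the fitted log2 change was -0.62 (SE 0.12, adjusted p = 0.00276 with the block). Leaving the block out ended the call for all 7 genes.

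After 10 Gy in C56BL6, which was compared with the same untreated libraries, 0 members passed without the block (background 0.007% of genes, 5 members at an unadjusted p under 0.05, 1 member in DESeq2). With the block 5 of 10 were lower (background 11.5% in either direction, 6.11% lower). They were Fos at a log2 fold change of -0.94 (adjusted p = 0.000158), Junb at -0.50 (adjusted p = 0.000327), Jund at -0.40 (adjusted p = 0.0055), Egr1 at -0.47 (adjusted p = 0.000419) and Ier3 at -0.36 (adjusted p = 0.00145). Fos was at 12, 21.5, 29.7 and 34.2 CPM and Egr1 at 337, 277, 297 and 288 CPM in the 10 Gy libraries, and Egr1 did not overlap with the untreated group. Summed proliferation markers averaged 718 CPM in untreated, 605 CPM in 10 Gy and 723 CPM in 20 Gy libraries of C56BL6 at 24 h. The same averages were 628, 331 and 452 CPM in wild cells and 894, 279 and 301 CPM in A. cahirinus. Mitochondrial genes took 1.816, 1.888, 1.808 and 1.359% of counts in untreated C56BL6 libraries at 24 h and 1.955, 2.517, 2.127 and 1.675% after 20 Gy, higher in 4 of 4 pairs. The part of these values in the 24 h results was not tested.

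**Figure D2:**
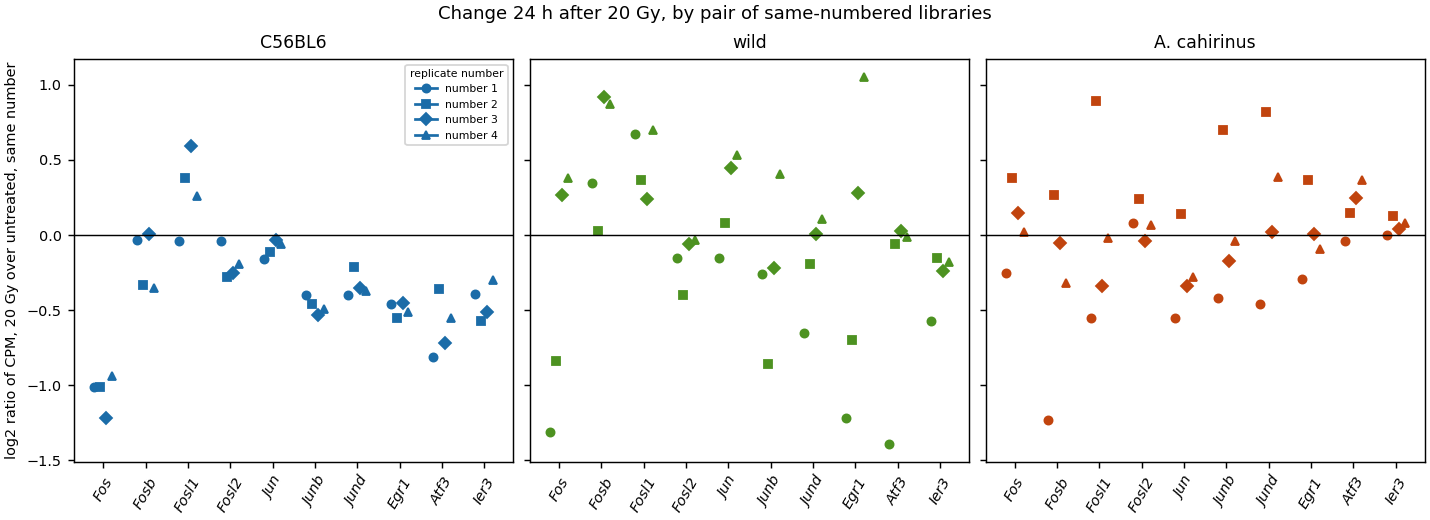
Log2 ratio of CPM at 20 Gy over untreated at 24 h for each pair of libraries with the same replicate number (points), for the 10 members in C56BL6, wild mice and A. cahirinus. Fos lies between -0.94 and -1.22 in the 4 C56BL6 pairs, while wild pairs fall on both sides of 0 for 6 of the 10 members.

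In wild cells at 24 h Egr1 and Fos varied widely between animals. Untreated Egr1 stood at 74.2, 219, 521 and 83 CPM, and at 31.8, 135, 633 and 173 CPM after 20 Gy. Fos stood at 24.6, 31.1, 64.9 and 12.7 CPM untreated and at 9.89, 17.4, 78.2 and 16.5 CPM after 20 Gy. Replicate 3 was the highest library of both genes in both groups, and the groups overlapped throughout.

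In edgeR 0 members passed in wild cells at 20 Gy or at 10 Gy (background 0% for both, 0 members at an unadjusted p under 0.05 in either, 0 members in DESeq2). With the block Fosl1 was higher after 20 Gy (background 12.5% in either direction, 7.36% higher). It went from 3.01, 11.1, 8.09 and 11.9 CPM to 4.81, 14.3, 9.54 and 19.2 CPM, higher in 4 of 4 pairs though the groups overlapped (log2 fold change 0.50, SE 0.13, adjusted p = 0.0264). With the block at 10 Gy 0 members passed (background 0%). Without replicate 1 and with the block, Fosb, Fosl1 and Jun were higher at both doses, beside 16.6% of genes at 20 Gy (9.19% higher) and 23% at 10 Gy (11.5% higher). Jun, for example, had a log2 fold change of 0.37 at 20 Gy (adjusted p = 0.026) and 0.36 at 10 Gy (adjusted p = 0.0368) there. Leaving replicate 1 out was chosen after seeing the data.

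In A. cahirinus at 24 h 0 members passed at 20 Gy (background 3.59% without and 24.1% with the block, 0 members with the block, 0 members at an unadjusted p under 0.05, 0 in DESeq2). Fos stood at 3.06, 2.75, 4.36 and 4.31 CPM untreated and at 2.57, 3.58, 4.84 and 4.38 CPM after 20 Gy. Ier3 stood at 171, 174, 159.7 and 141 CPM untreated and at 170.2, 191, 164 and 149 CPM after 20 Gy, and both genes overlapped between the groups. After 10 Gy 0 members passed without the block (background 3.73%, 0 at an unadjusted p under 0.05, 0 in DESeq2). With the block 2 were higher, beside 27.6% of genes (15.2% higher): Fosl2 at a log2 fold change of 0.16 (adjusted p = 0.028) and Atf3 at 0.29 (adjusted p = 0.0187).

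At 12 d after 20 Gy, Fosl1, Atf3 and Ier3 passed as higher in C56BL6 cells without the block. In A. cahirinus Fosb and Junb passed as higher and Ier3 as lower. The rise of Fosl1 was not particular to C56BL6. It was higher after 20 Gy in each same-numbered pair of A. cahirinus and wild cells, and passed in both with the block. The wild call was lost with the block when replicates 1 and 4 were summed (adjusted p = 0.0931) or replicate 1 was left out (adjusted p = 0.0972). The change of Fosl1 did not pass as different between A. cahirinus and C56BL6, with or without the block. In C56BL6 after 20 Gy, 3 of 10 members were higher and 0 lower, beside 26.5% of 15119 genes called and 13% called higher. The same 3 were higher after 10 Gy (background 20.9%, 10.3% higher), against the same untreated libraries. For 3 of 10 called, the background of either direction is of similar size. Unirradiated passaged cells are another control. C56BL6 means of untreated, 20 Gy and passaged cells were 2.13, 6.43 and 9.79 CPM for Fosl1. They were 46.9, 81.6 and 71.9 CPM for Ier3 and 2.09, 8.48 and 2.79 CPM for Atf3. Of these genes only Atf3 passed against passaged cells without the block. In A. cahirinus Junb averaged 67.9, 96.9 and 110.4 CPM and did not pass against passaged cells, whereas Fosb and Ier3 did.

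Fosl1, which pairs with Jun proteins and is known for its part in cell migration, stood at 4.02, 1.51, 1.64 and 1.35 CPM in untreated C56BL6 cells at 12 d. It stood at 6.73, 8.22, 6.06 and 4.7 CPM after 20 Gy and at 7.26, 6.38, 6.21 and 5.8 CPM after 10 Gy. Every irradiated library lay above every untreated one, and untreated replicate 1 lay above its own group. Fosl1 was 3.11-fold higher after 20 Gy (log2 fold change 1.63, SE 0.38, adjusted p = 0.0167) and rose by the same amount after 10 Gy (SE 0.36, adjusted p = 0.0165). The 20 Gy call was lost without replicate 2 (adjusted p = 0.111), 3 (0.104) or 4 (0.0654), and was kept without replicate 1 (log2 fold change 2.11, adjusted p = 0.00118).

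Atf3 stood at 1.94, 3.09, 2.11 and 1.22 CPM in untreated C56BL6 cells at 12 d, at 8.81, 7.91, 6.63 and 7.51 CPM after 10 Gy and at 11.5, 8.38, 7.17 and 6.88 CPM after 20 Gy. The irradiated libraries all lay above the untreated ones. Atf3 was 4.18-fold higher after 20 Gy (log2 fold change 2.06, SE 0.30, adjusted p = 0.00303), with an adjusted p of 0.00394 to 0.0356 when each replicate was left out. After 10 Gy the log2 value was 1.93 (SE 0.27, adjusted p = 0.00386), and the call was lost without replicate 3 (adjusted p = 0.0519).

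Ier3 stood at 71.6, 33.9, 41.7 and 40.6 CPM in untreated C56BL6 cells at 12 d and at 101, 80.9, 83.4 and 61.5 CPM after 20 Gy. The groups overlapped through untreated replicate 1 and irradiated replicate 4. Ier3 was 1.79-fold higher (log2 fold change 0.84, SE 0.25, adjusted p = 0.0387). After 10 Gy the log2 value was 0.87 (SE 0.22, adjusted p = 0.0291). The 20 Gy call was lost without replicate 2 (adjusted p = 0.162), 3 (0.18) or 4 (0.0995) and kept without replicate 1 (log2 fold change 0.99, adjusted p = 0.00208). The 10 Gy calls of Fosl1 and Ier3 were likewise lost without replicate 2, 3 or 4.

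The other 7 members did not pass in C56BL6 at 12 d after 20 Gy, with log2 fold changes from -0.64 (Egr1, SE 0.44) to 0.11 (Fos, SE 0.42, and Jund, SE 0.09). Jund stood at 30.3, 34.3, 31.6 and 28.1 CPM untreated and at 31.2, 36, 33.7 and 29.5 CPM after 20 Gy, higher in each pair by less than the spread between animals. Fosb and Egr1 passed only when 1 replicate was left out, Fosb without replicate 1 (log2 fold change -0.53, adjusted p = 0.0178) and Egr1 without replicate 4 (log2 fold change -0.95, adjusted p = 0.0273). The median over the 10 members was 0.09, against -0.01 for all genes.

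Other values moved with these groups. In C56BL6 at 12 d the summed keratinocyte markers stood at 839 CPM in untreated replicate 1 and at 195 and 246 CPM in its 10 Gy and 20 Gy libraries. Without replicate 1 the log2 fold changes at 20 Gy were 2.11 for Fosl1, 0.99 for Ier3 and 1.84 for Atf3, and all 3 passed. Summed fibroblast markers were 36154 ± 9374 CPM in untreated and 10163 ± 2060.1 CPM in 20 Gy libraries. The 4 adipocyte markers summed to 4.67, 14.7, 20.8 and 9.68 CPM untreated and to between 0.436 and 1.19 CPM after 20 Gy. Summed mural cell markers averaged 93.4 ± 7.86 CPM untreated and 148 ± 19.5 CPM after 20 Gy (SD, n = 4). Mitochondrial genes took 1.27 to 1.415% of counts untreated and 1.851 to 2.362% after 20 Gy, with no overlap. The part of these cell types and of this share in the results was not tested.

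In wild cells at 12 d, Atf3 stood at 1.89, 1.38, 0.82 and 1.4 CPM untreated and at 4.27, 2.79, 2.83 and 4.89 CPM after 20 Gy. The groups did not overlap. In edgeR without the block 0 members passed at 20 Gy (background 0.0694%, 1 member at an unadjusted p under 0.05), and the fitted log2 change of Atf3 was 1.46 with an SE of 0.34 (adjusted p = 0.131). In DESeq2 Atf3 passed (adjusted p = 0.00419). With the block 2 were higher (background 15.4%, 7.66% higher), Atf3 at 1.47 (SE 0.24, adjusted p = 0.0123) and Fosl1 at 1.12 (SE 0.27, adjusted p = 0.0369). Both calls were lost with the block when replicates 1 and 4 were summed (adjusted p = 0.0599 and 0.0931) or replicate 1 was left out (adjusted p = 0.0671 and 0.0972).

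Fosl1 in wild cells at 12 d stood at 5.07, 4.05, 1.06 and 6.5 CPM untreated and at 7.64, 9.73, 4.76 and 9.72 CPM after 20 Gy, higher in 4 of 4 pairs with overlapping groups. The other 8 members had log2 fold changes from -0.34 (Fosl2) to 0.22 (Jun) there without the block, and Fosl2 was lower in 4 of 4 pairs. After 10 Gy 0 members passed in wild cells without the block (background 0.264%, 1 at an unadjusted p under 0.05, 0 in DESeq2). With the block Atf3 was higher (log2 fold change 1.15, adjusted p = 0.0266, background 12.7%, 5.96% higher). This call too was lost with replicates 1 and 4 summed (adjusted p = 0.1) or without replicate 1 (adjusted p = 0.115). Summed fibroblast markers were 49972 ± 29820.1 CPM in untreated and 19249 ± 8014 CPM in 20 Gy wild libraries at 12 d, and their part was not tested.

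In A. cahirinus at 12 d, 3 of 10 members passed after 20 Gy (background 31.8%), 2 higher and 1 lower. Fosb stood at 1.42, 1.54, 1.65 and 1.93 CPM untreated and at 2.16, 2.79, 3.75 and 2.93 CPM after 20 Gy. The groups did not overlap, and 3.75 CPM was the highest level of Fosb in any A. cahirinus library (log2 fold change 0.84, SE 0.22, adjusted p = 0.0205). This call was lost without replicate 1 (adjusted p = 0.0575), 3 (0.12) or 4 (0.0671).

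Junb in A. cahirinus stood at 73.3, 63, 68.7 and 66.5 CPM untreated, at 101, 87, 114 and 95.6 CPM after 10 Gy and at 81.7, 80.5, 114 and 111 CPM after 20 Gy. All irradiated libraries lay above all untreated ones. The log2 fold change was 0.52 at 20 Gy (SE 0.14, adjusted p = 0.0238) and 0.55 at 10 Gy (SE 0.09, adjusted p = 0.0366), where Junb was the only member called (background 2.87%). The 20 Gy call was lost without replicate 3 (adjusted p = 0.11) or 4 (0.127). The 10 Gy call was lost without replicate 1 (adjusted p = 0.307), 3 (0.208) or 4 (0.16).

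Ier3 was lower in A. cahirinus after 20 Gy, from 161, 215, 177 and 163 CPM to 114, 167, 116 and 126 CPM. Replicate 2 was the highest of both groups, which overlapped through it (log2 fold change -0.45, SE 0.14, adjusted p = 0.0421). The call was lost without replicate 1 (adjusted p = 0.198), 3 (0.248) or 4 (0.122), and with DESeq2's size factors. With the block 7 of 10 passed (background 49.2%), adding Fosl1 at a log2 fold change of 0.85 (adjusted p = 0.00442), Fosl2 at -0.28 (adjusted p = 0.0178), Jun at -0.52 (adjusted p = 0.00615) and Egr1 at -1.04 (adjusted p = 0.00939). Egr1 went from 100.3, 79, 114 and 120.2 CPM to 57.6, 19.4, 58.9 and 86.1 CPM, lower in each pair, with only replicate 4 reaching into the untreated range. After 10 Gy the block gave 3 members (background 27.5%), Junb, Fosl1 at 0.72 (adjusted p = 0.024) and Egr1 at -0.59 (adjusted p = 0.0216). Summed proliferation markers averaged 251 CPM untreated, 184 CPM after 10 Gy and 47 CPM after 20 Gy in A. cahirinus at 12 d, and 109, 69.8 and 42.6 CPM in C56BL6. Summed fibroblast markers in A. cahirinus were 30900.2 ± 2362 CPM untreated and 23141 ± 4919.7 CPM after 20 Gy. The part of these markers in the results was not tested.

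Between the doses, 0 members passed in any of the 6 comparisons of 20 Gy with 10 Gy in edgeR without the block. The background was 0% in 5 of them and 0.457% in A. cahirinus at 12 d, and DESeq2 also called 0 members. At an unadjusted p under 0.05, 277 (C56BL6), 72 (wild) and 55 (A. cahirinus) genes were found at 24 h, and 301, 37 and 1917 at 12 d, and 0 members in each. With the block 1 member passed, Egr1 in A. cahirinus at 12 d, lower at 20 Gy (log2 fold change -0.45, SE 0.13, adjusted p = 0.0439, background 17.9%).

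**Figure D3:**
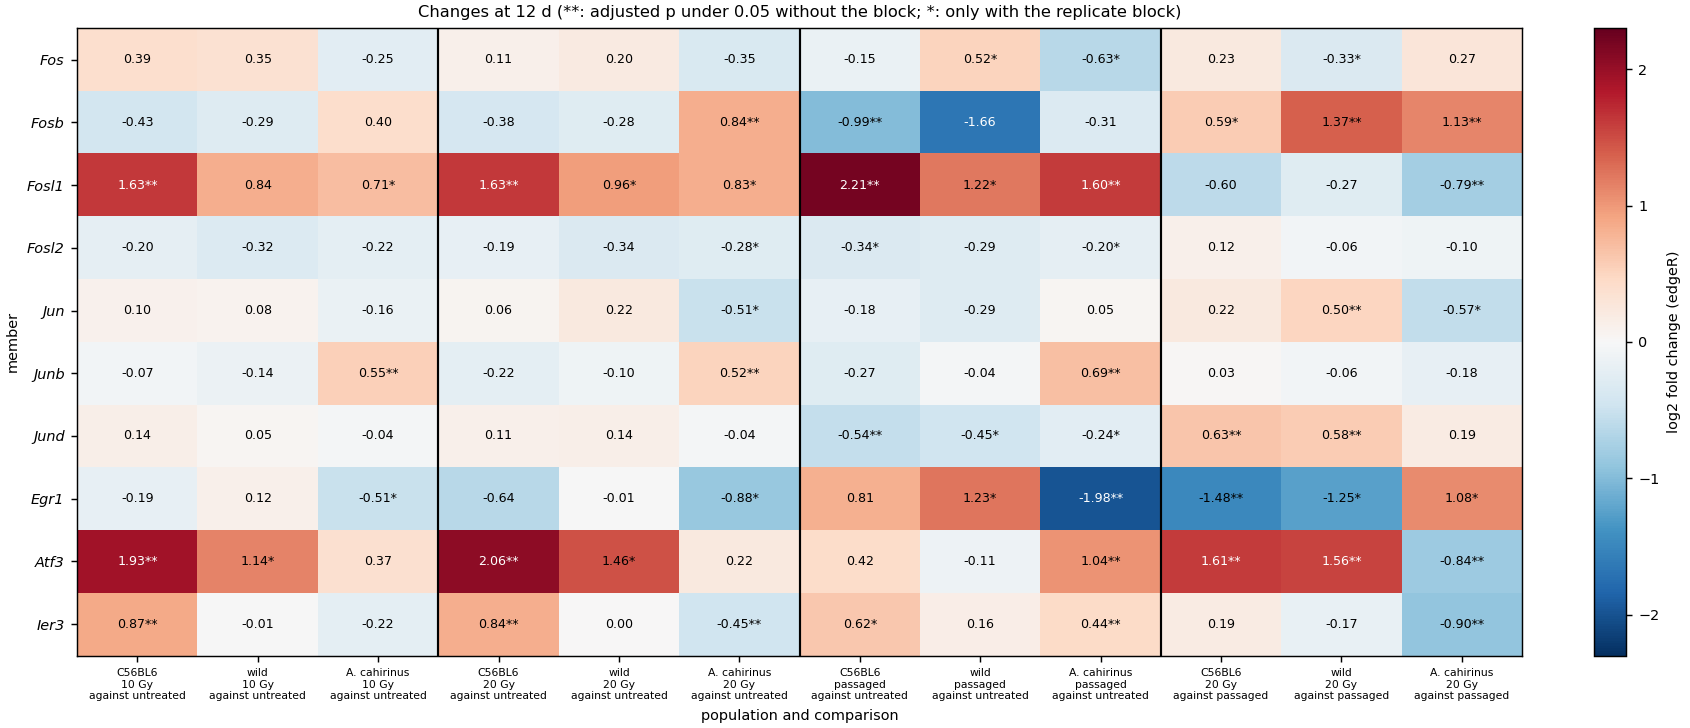
Log2 fold change of the 10 members in the 12 comparisons at 12 d (colour, red higher and blue lower), with double asterisks for an adjusted p under 0.05 without the block and single ones for calls made only with it. Atf3 is higher after irradiation in C56BL6 by 1.93 and 2.06, and Egr1 is lower in passaged A. cahirinus cells by a log2 fold change of -1.98.

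In passaged cells Fosl1 was higher than in the untreated cells of 12 d in C56BL6 and A. cahirinus, while Egr1 was lower in A. cahirinus. In C56BL6 3 of 10 members passed, beside 49.6% of genes. Fosl1 reached 16.3, 9.17, 6.1 and 7.55 CPM, above every untreated library (4.62-fold, log2 fold change 2.21, SE 0.45, adjusted p = 0.00486). Fosb went from 4.67, 7.55, 6.18 and 6.48 CPM to 5.04, 2.28, 2.29 and 2.82 CPM, overlapping through replicate 1 (log2 fold change -0.99, SE 0.30, adjusted p = 0.0235). That call was lost without replicate 2 (adjusted p = 0.135), 3 (0.115) or 4 (0.116). Jund went from 30.3, 34.3, 31.6 and 28.1 CPM to 21.8, 18.1, 20.5 and 24.7 CPM with no overlap (log2 fold change -0.54, SE 0.11, adjusted p = 0.00462). The block gave 5 members (background 60.1%), adding Fosl2 at -0.33 (adjusted p = 0.0157) and Ier3 at 0.67 (adjusted p = 0.0287).

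In wild cells 0 members passed for passage without the block (background 10.7%, 2 members at an unadjusted p under 0.05), and DESeq2 called 2. With the block 4 of 10 passed (background 31.9%): Fos at a log2 fold change of 0.56 (adjusted p = 0.0144), Fosl1 at 1.29 (adjusted p = 0.00586), Jund at -0.45 (adjusted p = 0.0131) and Egr1 at 1.46 (adjusted p = 0.0204). Egr1 stood at 34.9, 8.55, 59.5 and 61.1 CPM untreated and at 83.3, 59.8, 148 and 95.4 CPM passaged, higher in each pair with overlap only through untreated replicate 4. With replicates 1 and 4 summed and the block, Fosl1 was the only member called (adjusted p = 0.035).

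In A. cahirinus 5 of 10 passed for passage (background 25.8%), 4 higher and 1 lower. Fosl1 went from 1.38, 3.2, 2.09 and 1.9 CPM to 6.71, 6.76, 6.22 and 6.75 CPM, with no overlap and little spread after passage (3.03-fold, log2 fold change 1.60, SE 0.24, adjusted p = 0.00325). Junb reached 111, 87.8, 115 and 128 CPM, above every untreated library (log2 fold change 0.69, SE 0.11, adjusted p = 0.00461), and was lost without replicate 3 (adjusted p = 0.0547). Egr1 stood at 30.2, 15.1, 25.7 and 35.1 CPM, below every untreated library (3.94-fold lower, log2 fold change -1.98, SE 0.25, adjusted p = 0.00175).

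Atf3 went from 6.72, 6.34, 4.77 and 4.8 CPM to 10.8, 11.5, 13.2 and 11.5 CPM in A. cahirinus with no overlap (log2 fold change 1.04, SE 0.15, adjusted p = 0.00263). Ier3 reached 237, 285, 252 and 209 CPM and overlapped with untreated replicate 2 (log2 fold change 0.44, SE 0.13, adjusted p = 0.0373). Its call was lost without replicate 1 (adjusted p = 0.175), 3 (0.179) or 4 (0.0731). The block gave 8 members (background 49.5%), adding Fos at -0.65 (adjusted p = 0.00213), Fosl2 at -0.20 (adjusted p = 0.0453) and Jund at -0.24 (adjusted p = 0.00726). Summed proliferation markers averaged 633 CPM in passaged against 109 CPM in untreated C56BL6 cells, 578 against 114 CPM in wild cells and 429 against 251 CPM in A. cahirinus. Summed adipocyte markers averaged 0.43 against 12.4 CPM in C56BL6, with 2 of the 4 at 0 in the passaged libraries, and 5.21 against 16.4 CPM in A. cahirinus. Summed fibroblast markers averaged 19062 against 36154 CPM in C56BL6 and 19778 against 30900.2 CPM in A. cahirinus. The part of these markers in the passage results was not tested.

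Set against the passaged cells in place of the untreated ones, irradiated mouse cells had higher Atf3 and Jund. The comparison with passaged cells shares its 20 Gy libraries with the earlier one. Jund means at 12 d were 31.1 CPM untreated, 32.6 CPM after 20 Gy and 21.3 CPM passaged in C56BL6, and 26.5, 28.5 and 19.4 CPM in wild cells. Jund did not pass between 20 Gy and untreated cells at 12 d in either. Passaged cells passed as lower in Jund than untreated cells in C56BL6. In wild cells edgeR called this only with the block, and lost it with replicates 1 and 4 summed and the block (adjusted p = 0.0724). In C56BL6 3 of 10 passed, a share below the background of 41.6%. They were Atf3 at a log2 value of 1.61 (SE 0.23, adjusted p = 0.00102), Jund at 0.63 (SE 0.11, adjusted p = 0.00265) and Egr1 at -1.48 (SE 0.11, adjusted p = 5.58e-05). Passaged C56BL6 libraries had Atf3 at 3.75, 2.66, 2.14 and 2.62 CPM and Egr1 at 149, 131, 107 and 154 CPM, and the 20 Gy libraries had Egr1 at 48.4, 49.2, 48 and 46.9 CPM. Neither gene overlapped between the groups. Untreated Egr1 at 12 d stood at 122, 82, 85.5 and 19.8 CPM, and replicate 4 alone lay below the 20 Gy libraries.

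In wild cells 4 of 10 passed for 20 Gy against passaged (background 10.5%, 4.39% higher), all higher: Atf3 at 1.56 (SE 0.33, adjusted p = 0.0251), Jund at 0.58 (SE 0.13, adjusted p = 0.0268), Fosb at 1.37 (SE 0.35, adjusted p = 0.0433) and Jun at 0.50 (SE 0.13, adjusted p = 0.0476). Fosb stood at 3.15, 5.59, 2.98 and 3.05 CPM after 20 Gy and at 1.18, 0.977, 2.24 and 1.42 CPM in passaged cells, with no overlap. Jun stood at 57.2, 69.3, 61.2 and 69.9 CPM against 46.4, 46, 38.8 and 54.1 CPM, also without overlap. All 4 calls were lost without replicate 1, 2 or 4 and with replicates 1 and 4 summed. With both the sum and the block, 5 passed: Atf3 (adjusted p = 0.00852), Jund (0.0147), Jun (0.015), Fosb (0.0459) and Egr1 (log2 fold change -1.41, adjusted p = 0.00675). With the block alone 6 passed (background 38%), these 5 and Fos at a log2 fold change of -0.33 (adjusted p = 0.0458).

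In A. cahirinus 4 of 10 passed for 20 Gy against passaged (background 42.5%). Fosb was higher at 1.13 (SE 0.29, adjusted p = 0.0148), whereas Fosl1 was lower at -0.79 (SE 0.19, adjusted p = 0.0103), Atf3 at -0.84 (SE 0.15, adjusted p = 0.00306) and Ier3 at -0.90 (SE 0.14, adjusted p = 0.0015). Atf3 stood at 5, 7, 7.58 and 6.62 CPM after 20 Gy, below every passaged library. The Fosb call was lost without replicate 1 or 4, and that of Fosl1 without replicate 1, 3 or 4. The block added Jun at -0.59 (adjusted p = 0.00465) and Egr1 at 0.97 (adjusted p = 0.00153), beside 56% of genes.

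The difference between populations in the change was tested directly, as an interaction over genes with a shared symbol. For 20 Gy at 12 d, 4 of 10 members differed between A. cahirinus and C56BL6 (background 18.8%). Fosb changed more upward in A. cahirinus, by a log2 difference of 1.22 (SE 0.27, adjusted p = 0.00694), and so did Junb, by 0.74 (SE 0.23, adjusted p = 0.0408). Atf3 differed by -1.85 (SE 0.36, adjusted p = 0.00347) and Ier3 by -1.29 (SE 0.30, adjusted p = 0.00948). Leaving out a replicate here removed that number from both populations at once, so a lost call cannot be assigned to 1 animal. The Atf3 difference was kept when each number was left out. The Fosb difference was lost without replicate 3 (adjusted p = 0.0964) or 4 (0.0614), that of Junb without replicate 1 (0.0567), 3 (0.167) or 4 (0.23), and that of Ier3 without replicate 3 (0.135) or 4 (0.0514). The block added Jun, by -0.60 (adjusted p = 0.0177, background 38.1%).

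For 20 Gy at 24 h 0 members differed between A. cahirinus and C56BL6 without the block (background 2.08%, 4 members at an unadjusted p under 0.05, 0 in DESeq2). With the block 5 of 10 differed, all positive, beside 16.8% of genes in either direction and 9.2% positive. Fos differed by 1.14 (SE 0.13, adjusted p = 1.31e-05), Atf3 by 0.81 (adjusted p = 0.00126), Ier3 by 0.51 (adjusted p = 0.000175), Egr1 by 0.47 (adjusted p = 0.0037) and Fosl2 by 0.28 (adjusted p = 0.0192). In A. cahirinus the 20 Gy and untreated libraries of all 5 genes overlapped at 24 h. The proliferation markers given above also moved differently in these populations, with 894 against 301 CPM in A. cahirinus and 718 against 723 CPM in C56BL6, and their part in the difference was not tested.

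Against wild cells, 0 members differed from A. cahirinus at 12 d without the block (background 3.23%, 3 members at an unadjusted p under 0.05, and Atf3 in DESeq2 at an adjusted p of 0.0196). With the block 4 differed (background 23.5%): Fosb by 1.01 (adjusted p = 0.0273), Jun by -0.81 (adjusted p = 0.0218), Junb by 0.61 (adjusted p = 0.0141) and Atf3 by -1.25 (adjusted p = 0.0174). This block took wild replicates 1 and 4 as separate animals. It was not refitted with them summed or without replicate 1, so these calls lack that check. At 24 h 0 members differed without the block (background 0%, 0 at an unadjusted p under 0.05, 0 in DESeq2) and 0 with it (background 7.41%). Between wild and C56BL6 cells 0 members differed in the change at either time without the block (background 0% at both, 0 at an unadjusted p under 0.05, 0 in DESeq2) or with it (0.647% at 24 h and 0.101% at 12 d).

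For passage, 2 of 10 members differed between A. cahirinus and C56BL6 (background 27.5%). Egr1 differed by -2.79 (SE 0.55, adjusted p = 0.00259), with a lower level in passaged than in untreated A. cahirinus cells. In C56BL6 Egr1 stood at 122, 82, 85.5 and 19.8 CPM untreated and at 149, 131, 107 and 154 CPM passaged. These groups overlapped, and the log2 ratios of the pairs were 0.29, 0.67, 0.32 and 2.96. Egr1 did not pass for passage in C56BL6, with or without the block. Junb differed by 0.95 (SE 0.22, adjusted p = 0.00538), which was lost without replicate 3 (adjusted p = 0.0796).

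**Figure D4:**
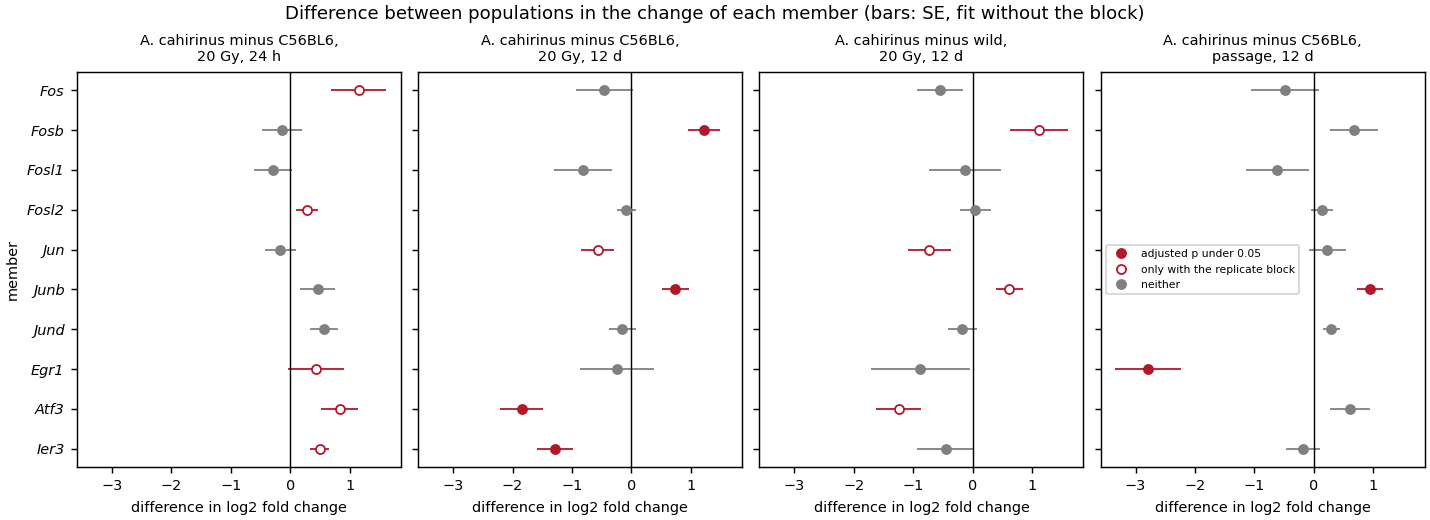
Difference between populations in the log2 change of each member, with standard errors, in 4 panels by contrast; filled red points passed an adjusted p of 0.05, open points passed only with the replicate block and grey points passed neither. Atf3 lies at -1.85 and Fosb at 1.22 for 20 Gy at 12 d in A. cahirinus minus C56BL6, and Fos lies farthest above 0 at 24 h.

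Genes around AP-1 were read as 4 lists, with the share of all genes called given beside their counts. The lists were chosen with earlier results of these data known, so their counts and medians are descriptions and not independent support. Of textbook AP-1 targets, such as matrix metalloproteinases, 9 of 15 rose and 1 fell in C56BL6 at 12 d after 20 Gy, where 26.5% of all genes passed, with a median log2 fold change of 1.41 against -0.01 for all genes tested. In A. cahirinus 8 of 15 rose and 2 fell (31.8% of all genes, median 0.91 against 0.00). In wild cells 0 of 14 passed without the block (0.0694% of all genes, median 0.82 against -0.01), and with it 5 rose and 1 fell (15.4% of all genes). After passage 8 of 13 rose and 2 fell in C56BL6 (49.6% of all genes, median 1.05), 1 of 13 rose in wild cells (10.7%, median 0.35) and 4 of 15 rose and 1 fell in A. cahirinus (25.8%, median 0.18). At 24 h 0 targets passed in any population without the block, with medians of 0.16, 0.36 and 0.16 in C56BL6, wild and A. cahirinus cells. With the block 6 of 13, 7 of 13 and 7 of 15 rose and 2, 0 and 1 fell, where 17.6%, 12.5% and 24.1% of all genes passed.

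Of 25 other immediate early genes, 0 passed at 24 h after 20 Gy in any population without the block. With it 12 fell and 2 rose in C56BL6 (median -0.16), 9 rose in wild cells (median 0.23) and 10 rose in A. cahirinus (median 0.19), beside the same shares of all genes. The difference in change between A. cahirinus and C56BL6 at 24 h passed with the block for 13 of the 25, all positive (median 0.40), beside 16.8% of all genes. At 12 d after 20 Gy, 2 of 25 rose in C56BL6 (26.5% of all genes, median 0.39), 0 of 24 passed in wild cells (0.0694%, median 0.37), and 7 of 25 rose and 1 fell in A. cahirinus (31.8%, median 0.17). After passage 11 rose and 3 fell in C56BL6 (49.6% of all genes), 1 of 24 rose in wild cells (10.7%), and 5 rose and 3 fell in A. cahirinus (25.8%), shares near those over all genes in C56BL6 and A. cahirinus.

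Other leucine zipper partners moved both ways at 12 d after 20 Gy. In C56BL6 3 of 8 rose and 2 fell, in wild cells 1 of 9 rose, and in A. cahirinus 1 of 10 rose and 2 fell. Of 15 kinases and serum response factor genes upstream of these members, 1 rose and 1 fell in C56BL6 and 1 rose and 4 fell in A. cahirinus, and 0 passed in wild cells. Over all genes 26.5% passed in C56BL6, 0.0694% in wild cells and 31.8% in A. cahirinus, so the counts of kinases lay near or below the background.

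The genes named from these lists were chosen as the highest or lowest called in a comparison. After 20 Gy at 12 d they included Lif, a cytokine, in C56BL6. Lif went from 7.14 ± 5.68 to 29.3 ± 1.31 CPM (SD, n = 4; 4.23-fold, log2 fold change 2.08, SE 0.47, adjusted p = 0.015). Maf, a large leucine zipper factor, was lower there, at -1.36 (adjusted p = 0.0169). In wild cells Mafk, a small Maf protein, was higher at 1.05 (adjusted p = 0.0298). In A. cahirinus Hmox1, the haem-degrading enzyme, was higher at 2.18 (adjusted p = 0.0121), and Plaur, the urokinase receptor, was lower at -1.39 (adjusted p = 0.000424).

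After passage Dusp5, a phosphatase of ERK kinases, was the highest called in both C56BL6, at 2.41 (adjusted p = 0.00496), and A. cahirinus, at 1.89 (adjusted p = 0.00162). In wild cells Egr3, a relative of Egr1, was higher at 1.99 (adjusted p = 0.0279).

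Within groups, Jun, Junb and Egr1 varied together in A. cahirinus. Across the 28 A. cahirinus libraries, as deviations from group means on the log2 scale, Jun and Junb had a Pearson r of 0.82, Jun and Egr1 0.76, and Junb and Egr1 0.71. Ier3 ran against them, with r = -0.82 with Egr1 and -0.78 with Jun. In every A. cahirinus group replicate 2 had the lowest Egr1 and the highest Ier3. Jun and Junb were also lowest in replicate 2, except in the 20 Gy group at 24 h. In untreated cells at 24 h, Egr1 was at 6 CPM in replicate 2 and at 18.5 to 22.7 CPM in the others. How far this animal code carries these correlations was not tested. In the 56 mouse libraries the values reached 0.59 for Fosl2 and Junb and 0.54 for both Fos and Ier3 and Fos and Egr1. Without the wild 10 Gy library of replicate 1 at 24 h, Fosl1 and Ier3 had the highest r (0.64, 0.53 with it), and Fosl1 and Jund had r = 0.09 (-0.40 with it). Libraries of an animal code share their cells, so these are descriptions.

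The genes most like each member over all libraries of a table were found among 10563 mouse and 10473 A. cahirinus genes, with log2 CPM centred within populations. In mouse cells Egr1 was most like Ier2, another immediate early gene (r = 0.92, 56 libraries), and Fos was most like Zfp36, which codes for an RNA-binding protein that destabilises short-lived transcripts (r = 0.72). Fosl1 was most like Sipa1l3 (r = 0.90), Jund like Ddrgk1 (r = 0.90) and Ier3 like Dusp8 (r = 0.71). In A. cahirinus Egr1 was most like N4bp3 (r = 0.97, 28 libraries), Fosl1 like Axl, a receptor tyrosine kinase (r = 0.95), Ier3 like Vegfa, the vascular growth factor (r = 0.92), and Atf3 like Sirpa (r = 0.87). These points share treatment, batch and animal.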

How the data were processed

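The authors deposited raw counts of reads per gene for 84 polyA libraries, from featureCounts 2.0.3 per the file headers, on GRCm39 with Ensembl release 108 (mouse) and on AcoCah2 (A. cahirinus). The submitters' processing notes also name Trim Galore and HISAT2. No option for strand is recorded, so reads of a gene and its antisense partner cannot be told apart. Gene lengths, deposited beside the counts and of another unit (bases), gave RPKM. Members and lists were chosen with earlier results of these data known. All members are named. Besides these, the rule named the highest and lowest called gene of the pathway lists (mean of at least 1 CPM) and the 1 gene most like each member (mean of at least 5 CPM). The lowest called list genes after passage are not reported here.

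Counts were filtered with filterByExpr, scaled by TMM and tested with edgeR 4.0.16 (quasi-likelihood, R 4.3.3) on the groups compared, over all genes, with Benjamini-Hochberg adjustment and a threshold of 0.05. The scripts were tested on simulated data. SE is the log2 fold change divided by the square root of F. CPM carry TMM factors. Interactions across tables used 18109 shared symbols. Alternatives were DESeq2 1.42.0, its size factors, no filter, 1 fit over all groups, each replicate left out and the replicate number as a block. For differences between populations a replicate number was left out of both populations at once. The numbers pair the samples, since library names give 1 animal code per number. Over the 24 comparisons within populations, same-numbered libraries correlated in their deviations from group means and every pair exceeded 0.1. The values without replicate 1 of wild mice under the block, and with wild replicates 1 and 4 summed, were chosen after seeing the data. Correlations used a pseudocount of 0.5 CPM.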

Additional observations from a re-analysis of the deposited data

Results flagged for a closer look

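In 14 of 210 groups of 4 libraries, 1 library lay far from the others of its group by Dixon's ratio (beyond its 95% critical value), where chance gives about 1 in 20. In wild cells at 24 h they were Fos in 20 Gy replicate 3 (78.2 CPM), Jun in 20 Gy replicate 1 (51.2 CPM), Jund in untreated replicate 2 (23.1 CPM) and Jund in 10 Gy replicate 1 (68.8 CPM). Wild cells at 12 d gave Fosb in 20 Gy replicate 2 (5.59 CPM). C56BL6 cells at 12 d gave Fosl1 in untreated replicate 1 (4.02 CPM), Fosl2 in untreated replicate 2 (271 CPM) and Egr1 in 10 Gy replicate 1 (112 CPM). In A. cahirinus at 24 h they were Fosl1, Jund and Atf3 in the 10 Gy group (10.4 CPM in replicate 2, 63.7 CPM in replicate 2 and 8.33 CPM in replicate 4) and Junb in untreated replicate 2 (63 CPM). In A. cahirinus at 12 d they were Fosl1 in passaged replicate 3 (6.22 CPM) and Fosl2 in 20 Gy replicate 4 (257 CPM).

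A test of the difference between populations passed for 6 changes, all in A. cahirinus minus C56BL6. For 20 Gy at 12 d the log2 differences were 1.22 for Fosb, 0.74 for Junb, -1.85 for Atf3 and -1.29 for Ier3. For passage they were 0.95 for Junb and -2.79 for Egr1.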

How the results depend on the processing

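Of 330 member results, 35 passed without the block. Of these 35, 1 was lost with DESeq2's size factors, 4 without the filter and 0 in DESeq2, which gained 11. Leaving out replicate 1, 2, 3 or 4 lost 11, 9, 18 and 19 of them. No called result changed sign. Among results called under neither setting, the sign differed for 18 to 29 when 1 replicate was left out and for 11 with the block.

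With the replicate block 49 of 310 member results gained a call and 0 lost one. Paired in this way, the members called went to 7 in C56BL6 at 24 h for 20 Gy and 5 for 10 Gy, and to 5 for passage. In wild cells they went to 1 for 20 Gy at 24 h, 2 for 20 Gy and 1 for 10 Gy at 12 d and 4 for passage. In A. cahirinus they went to 2 for 10 Gy at 24 h, 7 for 20 Gy and 3 for 10 Gy at 12 d, 1 for 20 Gy against 10 Gy at 12 d and 8 for passage. The difference of A. cahirinus from C56BL6 at 24 h gave 5. That from wild cells at 12 d gave 4, with wild replicates 1 and 4 taken as separate animals. With the block and without wild replicate 1, 3 were called at each dose at 24 h and 1 for passage. With wild replicates 1 and 4 summed, 0 were called for 20 Gy against passaged and, with the block, 1 for passage.

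DESeq2 called 1 in C56BL6 for 10 Gy at 24 h, 1 in wild cells for 20 Gy at 12 d and 2 for passage, 1 for A. cahirinus minus wild at 12 d, and 2 for untreated wild against C56BL6 at 24 h. Without the filter 0 were called for wild 20 Gy against passaged. A single fit over all groups called 5 for C56BL6 passage and 1 each in wild cells for 20 Gy at 12 d and passage.

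Leaving out 1 replicate at a time gave 1 to 4 called members in C56BL6 for 20 Gy at 12 d (1 without replicate 2 or 3), 0 to 4 for 10 Gy at 12 d (0 without replicate 3), 2 to 5 for passage and 3 to 5 for 20 Gy against passaged (5 without replicate 1 in both). In wild cells it gave 0 to 1 for passage (1 without replicate 3) and 0 to 4 for 20 Gy against passaged (0 without replicate 1, 2 or 4). In A. cahirinus it gave 0 to 7 for 20 Gy at 12 d (7 without replicate 2, 0 without 3 or 4), 0 to 1 for 10 Gy at 12 d, 3 to 6 for passage (3 without replicate 3) and 2 to 6 for 20 Gy against passaged (2 without replicate 1 or 4). The difference of A. cahirinus from C56BL6 gave 1 to 4 for 20 Gy at 12 d (1 without replicate 3 or 4) and 1 to 2 for passage (1 without replicate 3), and that from wild cells gave 0 to 2 at 12 d (2 without replicate 2). The cause of these shifts was not tested.

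Fosl1 in the wild 10 Gy library of replicate 1 at 24 h had 2 counts, and Fosb in A. cahirinus at 24 h rested on as few as 12 counts in a library. Whether depth limited the calls was not tested.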
